A study of Rattus norvegicus with 3 samples.

Results

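The alpha-arrestins Txnip, Arrdc4, Arrdc3, Arrdc2 and Arrdc1, and the transcription factor genes Mlxipl and Mlx, were followed across 3 cultures of fetal Wistar rat cardiomyocytes. Wistar is an outbred rat strain. The genes were found by symbol. Of 31099 probe sets, the groups of short probes that the array designs for a transcript, 9 carried 1 of these 7 symbols and no other. The array had 14218 named genes in all. Arrdc3 and Mlx had 2 probe sets each and the other 5 genes had 1. The set was chosen on measured values of these arrays, because Txnip and Arrdc4 had the lowest differences under myoblast-conditioned medium, so the differences below describe the arrays and are not tested. The cells had been plated for 48 hours and were then kept for 24 hours in fresh medium (the control), in medium conditioned by skeletal myoblasts or in medium conditioned by cardiac fibroblasts. Each medium was represented by 1 array, all 3 cultures shared strain, stage and cell preparation as far as the labels say, and no replicate spread exists. The labels name no genotype, transgene or added agent. What each medium contained, glucose included, is not given in the sources used here.

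Alpha-arrestins are cytoplasmic adaptor proteins that bring NEDD4-family ubiquitin ligases to membrane proteins and so direct these to endocytosis or sorting. Txnip, the best known of them, also binds thioredoxin and restrains glucose uptake by promoting the internalisation of glucose transporters. Txnip and Arrdc4 are known as glucose-responsive genes: when glucose phosphates accumulate, the factors MondoA (gene Mlxip) and ChREBP (gene Mlxipl) pair with Mlx and bind carbohydrate response elements, which are built of paired E-box-like motifs, in their promoters. In cardiac muscle Txnip is known for roles in glucose use and in redox balance.

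Values were read as log2 values centred, for each probe set, on its median array. This reading was inferred, the centring from the signs and blanks of the values. On it, 0 is the median array, a difference of 1 is 2-fold, and the brightness of a gene is unknown. A blank cell was read as 0. Technical error could be gauged only from 42 probe sets of control transcripts added during labelling and hybridisation. Their differences reached 0.66 in size for myoblast medium against control, 0.68 for fibroblast medium against control and 1.02 for one conditioned medium against the other, and whether equal amounts were added is not known.

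Txnip and Arrdc4 were highest in fresh medium, intermediate in fibroblast medium and far lowest in myoblast medium. Txnip had a value of 1.03 in fresh medium, 0.00 in fibroblast medium and -2.64 in myoblast medium. Arrdc4, an adaptor that with other alpha-arrestins recruits ubiquitin ligases to receptors and transporters, had 1.001, 0.00 and -2.64 in the same order of media. The arrays thus held the same order for both genes, an order that 889 of the 14218 genes (6.25%) had. The choice of the genes had already set fresh medium far above myoblast medium, so nothing is read from that share. Its base includes 1627 genes at 0 on every array, which cannot have the order.

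Against fresh medium, Txnip was lower by a log2 difference of -3.68 in myoblast medium, which is 12.8-fold. Arrdc4 was at -3.64, or 12.5-fold. No gene other than Txnip lay below Arrdc4, and 3 genes exceeded the difference of Arrdc4 in size: Txnip itself, the cystathionine gamma-lyase gene Cth at 4.15 and the pseudokinase gene Trib3 at 3.82. Of the 7 genes, 2 were at least 2-fold lower and 0 were at least 2-fold higher, where 0.844% of all genes were at least 2-fold lower and 1.35% at least 2-fold higher. Since this contrast chose the genes, nothing is read from that count.

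In fibroblast medium the difference from fresh medium was -1.03 for Txnip (2.05-fold) and -1.001 for Arrdc4 (2.002-fold). These came to 28.1% and 27.5% of the size of their differences in myoblast medium, on the log2 scale. Txnip had 347 genes below it in this comparison and Arrdc4 had 368. Again 2 of 7 genes were at least 2-fold lower and 0 at least 2-fold higher, with 2.6% of all genes lower and 4.26% higher by that much. The count sits at the threshold. With each array centred on the median of its nonblank values, Txnip was at -0.99 and Arrdc4 at -0.95, and 0 of the 7 genes passed 2-fold. Both comparisons use the same fresh-medium array, and its values entered the choice of the genes. Nothing is therefore read from their rank or count here.

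Set directly against fibroblast medium, myoblast medium had Txnip at -2.64 (6.25-fold lower) and Arrdc4 at -2.64 (6.22-fold lower). This contrast uses the same myoblast array whose low values chose the genes, so nothing is read from their rank or count here. In it, 83 of 14218 genes were lower than Txnip and 84 lower than Arrdc4, the additional gene being Txnip. The 2 of 7 genes at least 2-fold lower and 0 at least 2-fold higher stand beside 3.94% and 2.12% of all genes. With a 1.5-fold threshold, 2 of the 7 genes were past it in either direction in each comparison, against 6.63% of all genes in myoblast medium minus control, 16.1% in fibroblast medium minus control and 15.0% between the conditioned media. With a 3-fold threshold, 2, 0 and 2 of the 7 were past it, against 0.528%, 2.83% and 2.38%.

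**Figure D1:**
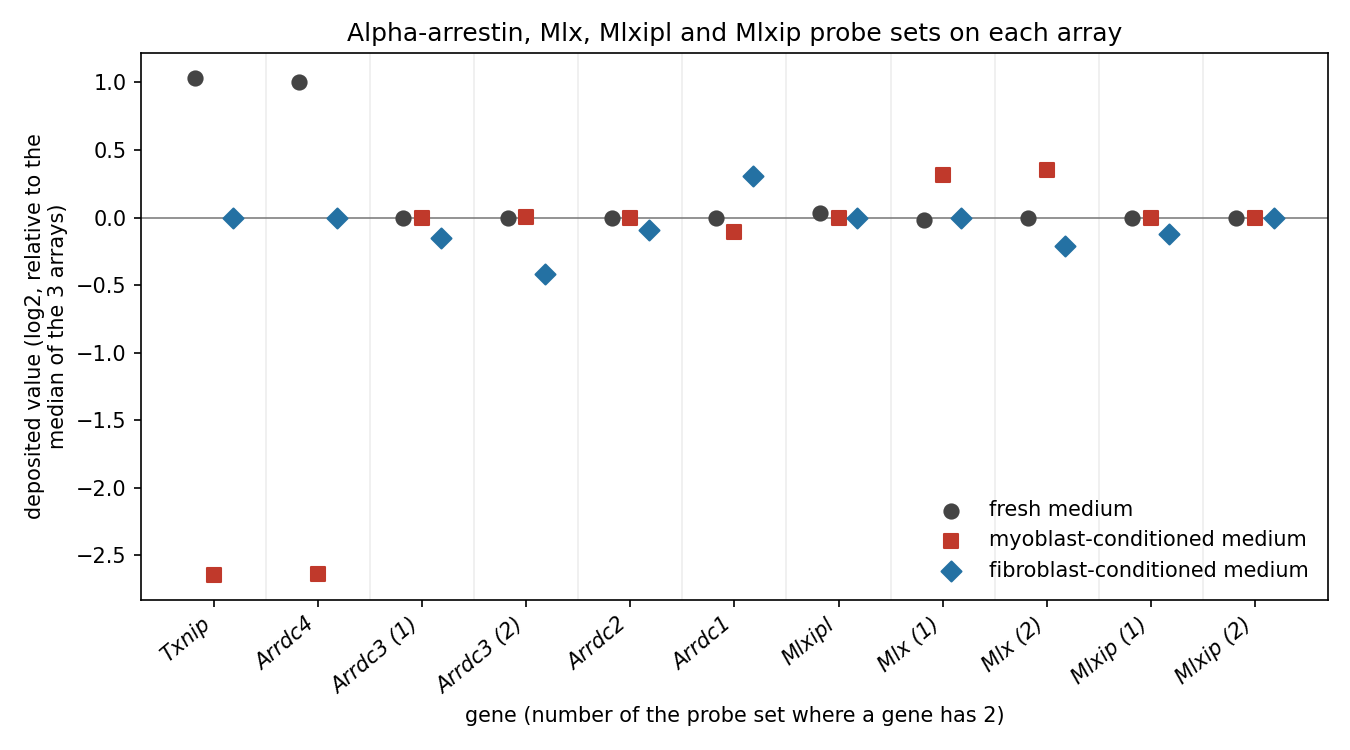
Deposited log2 value, relative to the median of the 3 arrays, of every probe set of the alpha-arrestins, Mlxipl, Mlx and Mlxip (points, 1 per array, blanks at 0). Txnip and Arrdc4 stand at 1.03 and 1.001 in fresh medium and at -2.64 in myoblast medium, whereas the values of the other probe sets lie between -0.42 and 0.35.

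Txnip and Arrdc4 differed little from each other. Their values were 0.03 apart in fresh medium and 0.01 apart in myoblast medium, and both were the median in fibroblast medium. Both were chosen as the lowest in myoblast medium against control, so their nearness follows in part from that choice. Their equal values in fibroblast medium come from the centring. Centred values carry no level, so this says nothing of how abundant either transcript was. Each gene rests on 1 probe set with its symbol alone. Probe sets unnamed here or with several genes were not searched for either.

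The other alpha-arrestins stayed close to their medians. Arrdc3, an adaptor known for binding the beta-2 adrenergic receptor, had a first probe set at 0.00 in fresh and in myoblast medium and at -0.15 in fibroblast medium. Its second probe set was at 0.00, 0.01 and -0.42. Both were lowest in fibroblast medium, and their mean gave Arrdc3 a difference from control of 0.00 in myoblast and of -0.28 in fibroblast medium.

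Arrdc2, another adaptor of the family, had values of 0.00 in fresh and in myoblast medium and -0.09 in fibroblast medium. Arrdc1, which is known for recruiting budding machinery to the plasma membrane and releasing small vesicles, was at 0.00 in fresh medium, -0.11 in myoblast medium and 0.31 in fibroblast medium. Arrdc1 was therefore highest where Arrdc3 and Arrdc2 were lowest. All of these differences were smaller than those the added controls reached. Arrdc5, the remaining family member, had no probe set under that symbol alone and was not analysed here.

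Among the glucose-sensing regulators, Mlx had its highest value in myoblast medium. Mlx encodes the shared partner of MondoA and ChREBP. Its first probe set was at -0.02 in fresh medium, 0.32 in myoblast medium and 0.00 in fibroblast medium. Its second was at 0.00, 0.35 and -0.21.

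Both Mlx probe sets were highest in myoblast medium, where Txnip and Arrdc4 were lowest. The mean difference of Mlx was 0.34 (1.27-fold) for myoblast medium against control, -0.10 for fibroblast medium against control and 0.44 (1.36-fold) for myoblast against fibroblast medium. These are smaller than the differences that the added controls reached. The added control transcripts themselves were higher by a mean of 0.25 on the myoblast array than on the control array. Scaling the arrays to them moves the median of all genes to -0.25 in that comparison and Mlx to 0.09, so a difference of a gene or list between 0 and 0.25 changes sign under that scaling.

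Mlxipl was at 0.04 in fresh medium and 0.00 in both conditioned media, a difference of -0.04 from control in each. Its partner-sharing relative Mlxip had 1 probe set with no value on any array and 1 that read 0.00, 0.00 and -0.12 in fresh, myoblast and fibroblast medium. No regulator of the set was 1.5-fold different in either conditioned medium.

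**Figure D2:**
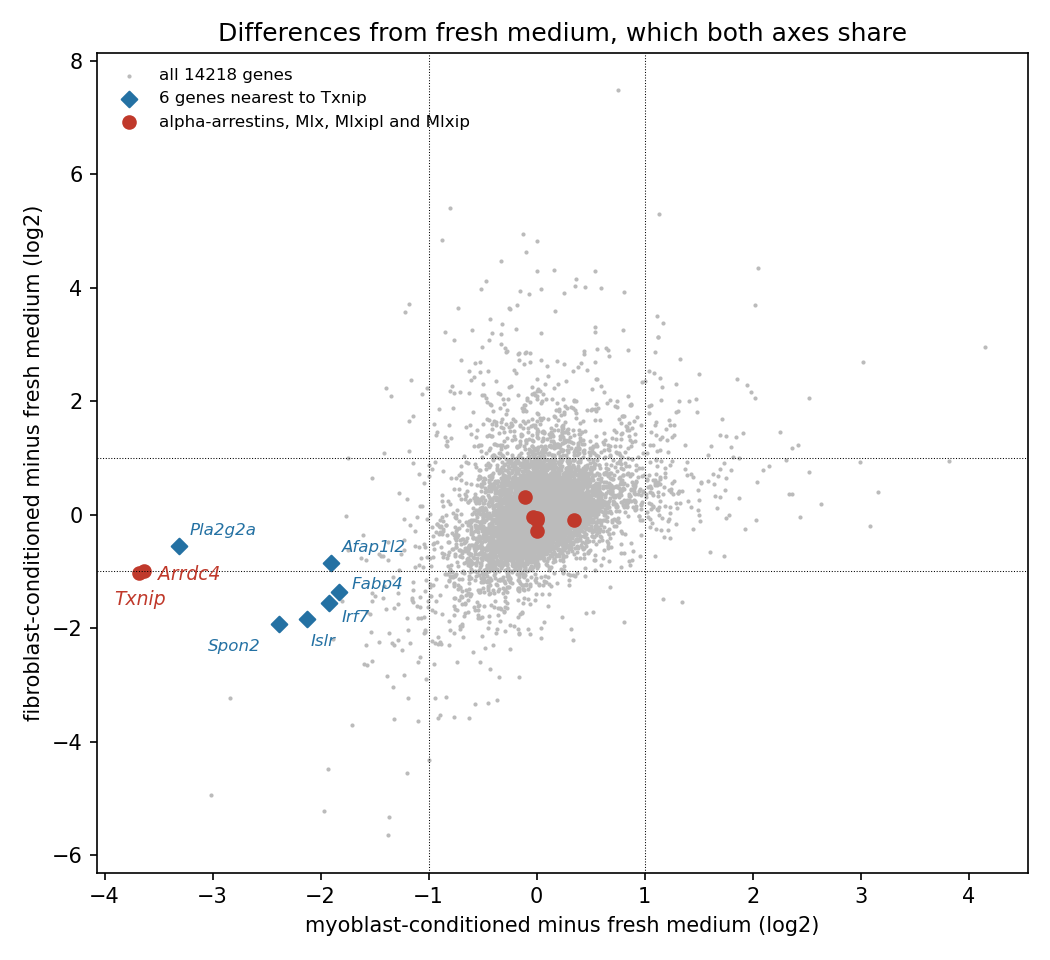
Log2 difference of each of 14218 genes (grey) from fresh medium in myoblast medium (horizontal) and in fibroblast medium (vertical), with the alpha-arrestins, Mlx, Mlxipl and Mlxip in red, the 6 genes nearest to Txnip as blue diamonds and dotted lines at 2-fold. Txnip and Arrdc4 nearly coincide at the left edge, at -3.68 and -3.64 on the horizontal axis. The 6 nearest genes leave out the other genes of the set and provisional symbols. Both axes subtract the same control array, so their joint spread is not evidence of a shared response.

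Genes with the pattern most like that of Txnip and Arrdc4 were ranked by distance. Likeness was the Euclidean distance over both differences from control, on the log2 scale and over 3 arrays. Since the myoblast difference in it chose both genes, as the lowest of all, the number of near neighbours was set by that choice and nothing is read from it. Txnip and Arrdc4 were 0.05 apart. The nearest ranked gene to Txnip was Pla2g2a, which encodes a secreted phospholipase A2, at a distance of 0.61. Pla2g2a was at 0.55 in fresh medium, 0.00 in fibroblast medium and -2.76 in myoblast medium.

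The next were Spon2, a matrix protein gene, at a distance of 1.57, Islr at 1.74, Afap1l2 at 1.79, Irf7, an interferon regulatory factor gene, at 1.83, and Fabp4, a fatty acid-binding protein gene, at 1.87. The same 6 genes in the same order were nearest to Arrdc4. All 6 were farther from Txnip than Arrdc4 was. Since Txnip and Arrdc4 were chosen as the lowest of all in myoblast medium, this follows in part from that choice and nothing is read from it. Each of the 6 rests on 1 probe set.

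RefSeq promoter windows of assembly GRCr8, running from 250 bases before to 50 after an annotated start, were given for 6 of the 7 genes, all but Txnip. They were searched on both strands for the E-box CACGTG, for paired E-box-like motifs spaced as in a carbohydrate response element (inverted, CACGNGNNNNNCNCGTG, or direct, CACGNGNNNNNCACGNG), for the CCAAT box that nuclear factor Y binds, and for the FOXO motif GTAAACA. The paired forms may overlap an E-box. For each gene only the first window listed was searched, so any further start was not covered. The shares of all windows given below are over 33469 windows of 27457 genes. The windows of 3 genes are shown 5' to 3' with E-boxes and CCAAT boxes in capitals (ATTGG is CCAAT on the other strand): Arrdc4, which was low in myoblast medium, Mlx, which also carries an E-box, and Arrdc3, an alpha-arrestin that was near its median.
Arrdc4, chr1:131793376-131793675, minus strand: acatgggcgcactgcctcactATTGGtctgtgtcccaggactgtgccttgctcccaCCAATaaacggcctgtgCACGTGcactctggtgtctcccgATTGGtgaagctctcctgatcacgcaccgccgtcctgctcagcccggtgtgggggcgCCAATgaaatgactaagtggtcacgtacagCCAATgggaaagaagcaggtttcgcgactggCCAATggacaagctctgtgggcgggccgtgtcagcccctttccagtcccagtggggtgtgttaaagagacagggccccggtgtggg
Mlx, chr10:86519636-86519935, plus strand: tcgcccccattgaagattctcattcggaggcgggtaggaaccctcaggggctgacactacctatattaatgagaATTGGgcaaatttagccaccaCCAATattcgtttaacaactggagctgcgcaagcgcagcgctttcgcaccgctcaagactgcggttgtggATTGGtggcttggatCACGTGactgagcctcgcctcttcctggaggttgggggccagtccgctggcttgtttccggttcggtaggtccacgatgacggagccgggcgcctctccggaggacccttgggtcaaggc
Arrdc3, chr2:12872952-12873251, plus strand: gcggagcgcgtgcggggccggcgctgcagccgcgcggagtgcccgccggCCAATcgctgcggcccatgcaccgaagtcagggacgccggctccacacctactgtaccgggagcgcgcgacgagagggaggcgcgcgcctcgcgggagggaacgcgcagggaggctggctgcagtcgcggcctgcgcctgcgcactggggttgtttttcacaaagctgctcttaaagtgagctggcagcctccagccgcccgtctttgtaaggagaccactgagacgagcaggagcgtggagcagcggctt

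The Arrdc4 window held 1 E-box, which begins 177 bases before the start, and 6 CCAAT boxes, 4 forward and 2 reverse. An E-box stood in 6.42% of all 33469 windows and a CCAAT box in 37.5%. At least 6 CCAAT boxes, a number chosen after the Arrdc4 window had been read, stood in 14 windows (0.0418%). The Mlx window held 1 E-box, 70 bases before the start, and 3 CCAAT boxes.

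No E-box stood in the windows of Arrdc3, Arrdc2, Arrdc1 or Mlxipl, which held 1, 2, 0 and 2 CCAAT boxes. Neither paired form stood in the window of any of the 6 genes. The inverted form stood in 0.0329% of all windows and the direct form in 0.0359%. The FOXO motif stood in none of the 6, and in 3.78% of all windows. These are matches of letters in a short window and say nothing of binding.

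**Figure D3:**
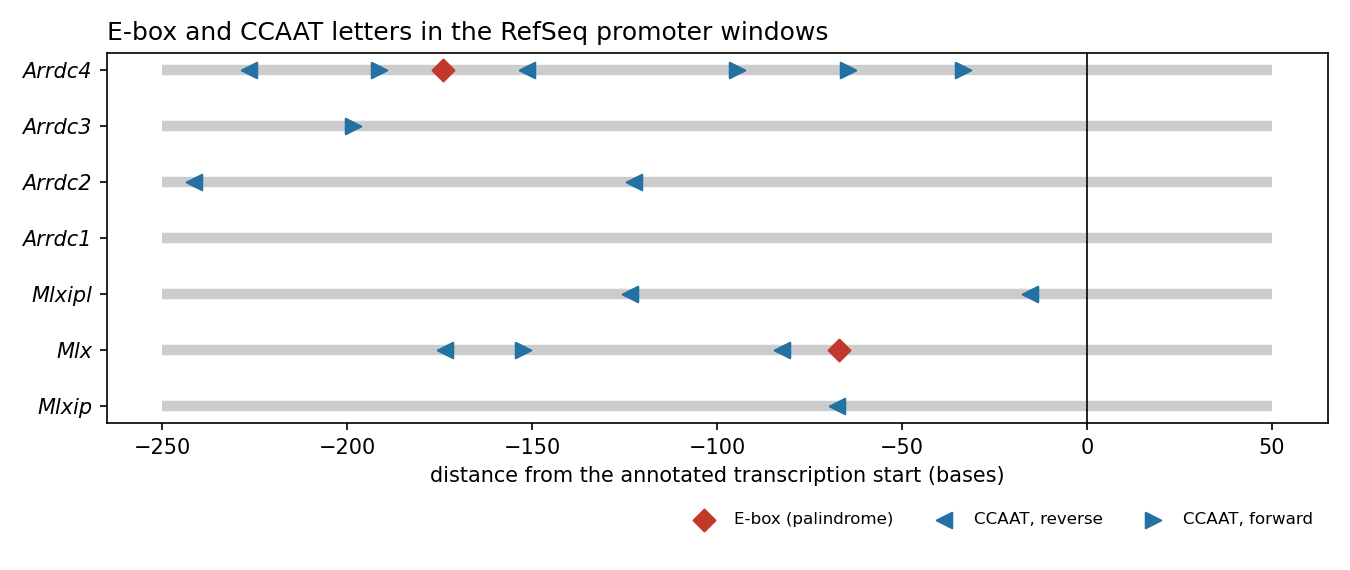
E-box (red diamonds) and CCAAT letters (blue triangles, pointing with their strand) by distance in bases from the annotated start, in the RefSeq promoter windows (grey bars) of the alpha-arrestins other than Txnip, and of Mlxipl, Mlx and Mlxip. The Arrdc4 window holds 6 CCAAT boxes and 1 E-box, and the Mlx window 3 and 1.

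The transcription factor network around Mlx varied in both directions. Of 13 measured genes of the MLX and MAX network, Mlx, Mlxip and Mlxipl included, 1 was at least 2-fold higher and 0 lower in myoblast medium, with a median difference of 0.00. It was Myc, which encodes a growth-promoting factor that pairs with Max and binds E-boxes, with array values of -1.20 in fresh medium, 0.60 in myoblast medium and 0.00 in fibroblast medium. Its difference from control was 1.80 in myoblast medium and 1.20 in fibroblast medium, where it was again the only one of the 13 past 2-fold. The order of Myc over the arrays was the reverse of that of Txnip and Arrdc4. The share of all genes with that reverse order was not counted, so nothing is read from it here or below. The difference of Mycn from control was -0.75 in myoblast and -0.34 in fibroblast medium, and that of Mxi1, a gene of a Max-binding repressor, -0.42 and -0.58. Values of the gene lists and markers that follow are differences from fresh medium unless they are called array values. The counts of this list and of those that follow stand beside the shares of all genes. In myoblast medium 0.844% of all genes were at least 2-fold lower and 1.35% higher. In fibroblast medium these shares were 2.6% and 4.26%.

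Other genes reported elsewhere as targets of ChREBP or MondoA went in both directions. Of 24 measured, 2 were at least 2-fold lower and 2 at least 2-fold higher in myoblast medium. Among all genes these shares were 0.844% and 1.35%. The median of the 24 was 0.06 against 0.00 for all genes. The lower genes were Rgs16, which encodes a regulator of G protein signalling, at -1.14, and Klf10, a Kruppel-like factor gene, at -1.02. The higher genes were Angptl8, which encodes a secreted regulator of lipoprotein lipase, at 2.63, and the fatty acid desaturase gene Scd at 1.73.

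Klf10 shared the order of Txnip over the arrays, with array values of 0.75 in fresh, 0.00 in fibroblast and -0.27 in myoblast medium. Angptl8 had the reverse order, with array values of -0.18, 0.00 and 2.45. In fibroblast medium 1 of the 24 genes, the malic enzyme gene Me1 at 1.21, was at least 2-fold higher and 0 were lower, with a median of 0.00. Pklr, Acacb and Khk were blank throughout, and their 0.00 rests on that.

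Genes of glucose entry and phosphorylation, the step upstream of MondoA and ChREBP, were mixed. Of 11 measured, 1 was at least 2-fold higher in myoblast medium and 0 lower, with a median of 0.05. It was Hk2, the gene of an inducible hexokinase, with array values of -0.46 in fresh, 0.78 in myoblast and 0.00 in fibroblast medium. In fibroblast medium 2 were at least 2-fold lower, Slc2a1, which encodes the glucose transporter GLUT1 and whose protein Txnip is known to bind, at -1.06, and Gckr at -1.16, with a median of -0.35. Slc2a4, the gene of the insulin-regulated transporter GLUT4, was at 0.89 in myoblast and -0.63 in fibroblast medium.

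Of 16 measured genes of the thioredoxin and peroxiredoxin system, whose reduced thioredoxin Txnip binds, 1 was at least 2-fold higher in myoblast medium, 0 were lower and the median was 0.08. It was Srxn1, which encodes a sulfiredoxin that repairs peroxiredoxins, at 1.14. The thioredoxin gene Txn1 was at 0.11 and the thioredoxin reductase gene Txnrd1 at 0.65. The glutaredoxin gene Glrx was the lowest of the list at -0.74. In fibroblast medium 0 of 16 passed 2-fold in either direction, and the median was 0.00.

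The inflammasome genes were listed because Txnip is known to bind the sensor NLRP3, and they had their higher median in fibroblast medium, where Txnip was intermediate. Of 7 measured, 2 were at least 2-fold higher there, Il1b at 4.94 and Il18 at 2.53, and the median was 0.81. In myoblast medium 0 of 7 passed 2-fold and the median was -0.13. Nlrp3 itself was not analysed here. Macrophage markers were high on the same array, as given below.

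The ubiquitin ligases and cargo that alpha-arrestins act with showed no common direction. Of 10 measured genes of NEDD4-family ligases and their adaptors, 0 were 2-fold different in myoblast medium (median -0.01). In fibroblast medium Smurf2 was at 1.20 and Hecw2 at -1.68, 1 gene each way, with a median of 0.10. Nedd4, a ligase that binds PY motifs of alpha-arrestins, was at -0.01 and -0.28 as a mean of 6 probe sets. Of 11 reported cargo and partner genes, Notch1 was the only one past 2-fold in myoblast medium, at -1.14.

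In fibroblast medium 3 of those 11 passed 2-fold, Notch1 at -1.33 and the vascular receptor gene Kdr at -1.44 lower, and Ddit4, which encodes an mTORC1 inhibitor that binds Txnip, at 1.23 higher. The beta-1 adrenergic receptor gene Adrb1 was at 0.00 in myoblast and -0.20 in fibroblast medium. The beta-arrestins, distant relatives that share the arrestin fold, were below 2-fold in both media, with Arrb1 at 0.18 and 0.20 and Arrb2 at 0.00 and 0.40.

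**Figure D4:**
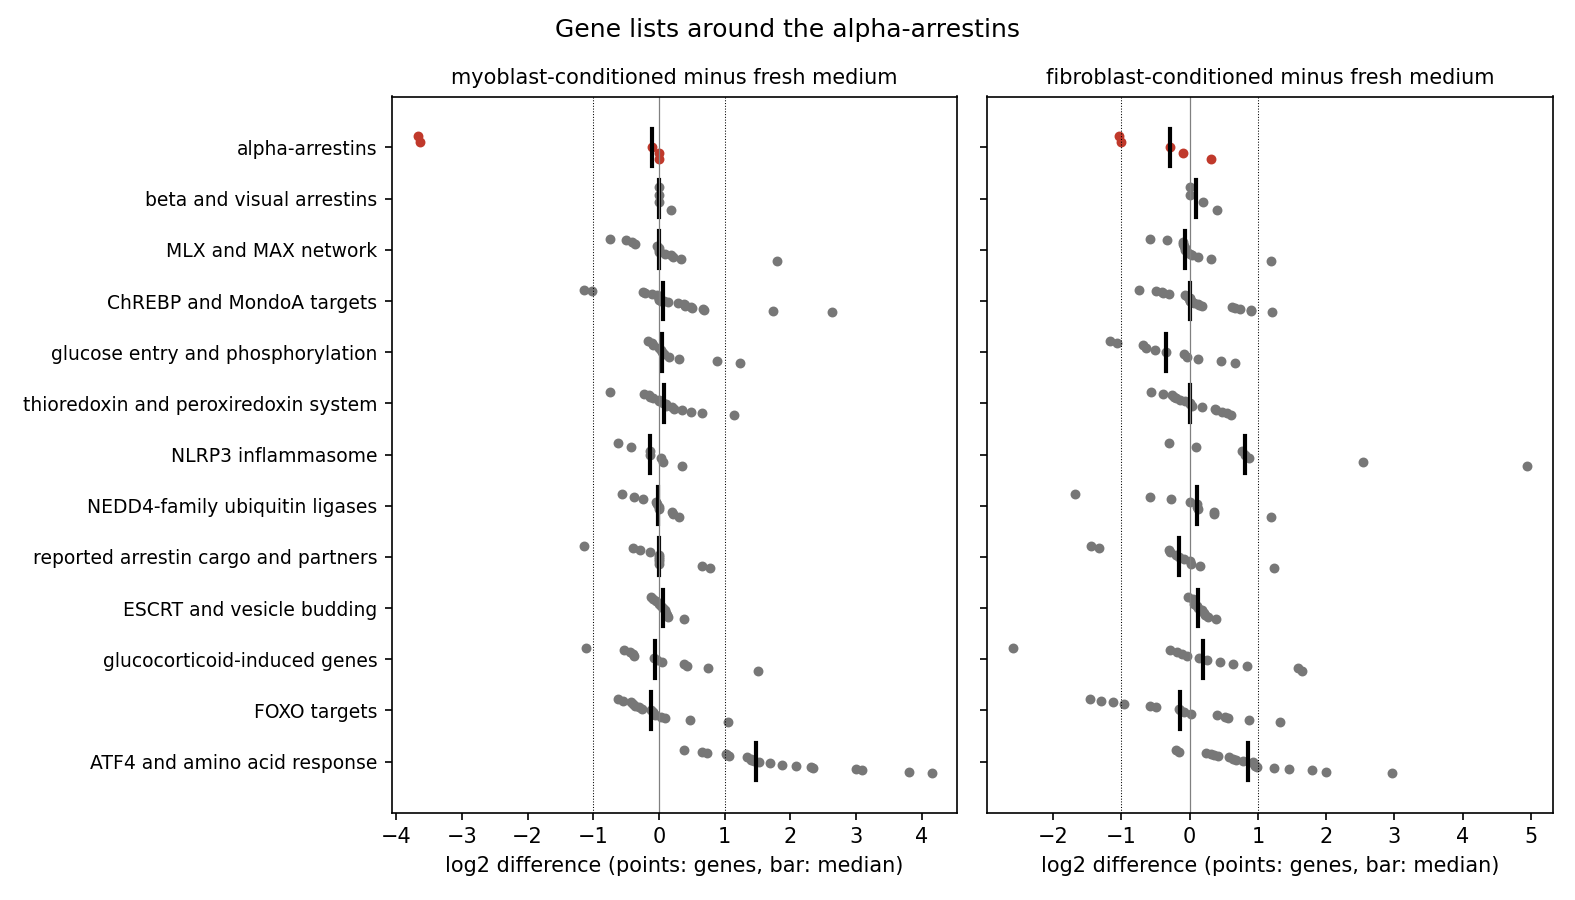
Log2 difference from fresh medium of each measured gene (points) in 13 lists, with the median of each list as a bar, for myoblast medium (left) and fibroblast medium (right); dotted lines mark 2-fold. The pair of red points at the far left are Txnip and Arrdc4 at -3.68 and -3.64, and no gene of the other lists lies below -1.14 in myoblast medium.

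Markers of other cell types moved with the media, and their part in the results was not tested. In these bulk cultures, fewer cells of a type and less RNA per cell cannot be told apart. Absolute and summed marker levels cannot be had from centred values, so the labelled cell type could not be checked against its markers either. Among 11 endothelial markers, 4 had at least 2-fold lower values in myoblast medium, with a median difference of -0.84, and 10 of the 11 in fibroblast medium, with a median of -2.83. Emcn was at -1.38 and -5.65 in myoblast and fibroblast medium, Cldn5 at -0.91 and -3.58 and Nos3 at -0.77 and -3.56.

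The median of 12 macrophage markers was -0.40 in myoblast and 1.63 in fibroblast medium, and 9 of the 12 were at least 2-fold higher in the latter, led by Adgre1 at 5.41, Fcgr2b at 5.30 and Lyz2 at 4.85. In myoblast medium 1 of the 12, Fcgr2b at 1.13, was at least 2-fold higher. The 11 cardiomyocyte markers had medians of -0.19 and -0.58. Of these, 1 was at least 2-fold higher in myoblast medium, Myh7 at 1.43, and 4 were at least 2-fold lower in fibroblast medium, with Myl7 at -2.30 and Myh6 at -2.11.

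The 10 fibroblast markers had medians of -0.13 and -0.07, with members past 2-fold each way. In myoblast medium 2 were at least 2-fold lower, Pdgfra at -1.42 and Fbln1 at -1.03. In fibroblast medium 2 were higher, Mfap5 at 3.88 and Thy1 at 1.69, and 2 were lower, Fbln1 at -2.07 and Pdgfra at -1.48. Of 5 erythroid markers (medians -0.13 and -0.23), Hbb alone passed 2-fold, at -1.001 and -4.32. Of 8 skeletal muscle markers (medians -0.04 and -0.12), Ckm alone did, at -1.71 in fibroblast medium. As a sign of RNA quality, the 3' minus 5' probe sets differed from the control array by -0.15 for beta-actin, 0.02 for Gapdh and 0.01 for hexokinase on the myoblast array, and by 0.22, -0.01 and 0.85 on the fibroblast array.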

How the data were processed

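Total RNA was labelled with biotin by an Affymetrix 3' IVT procedure and hybridised to 1 array per medium, per the labels' protocols. The authors deposited log2 values, made with RMA per the submitters' processing notes, with no version or settings named. Of 31099 probe sets, 17117 had 2 values, of opposite sign in each, 8002 had 1 and 5980 none, so the values were read as centred on the median array and blanks as 0. The log base is taken from RMA. The platform annotation gave 20832 probe sets 1 gene, 436 several and left 9831 unnamed here. Updating symbols by Entrez ID changed 0 of them. Probe sets of a gene were averaged. Differences between arrays were taken, and genes at least 2-fold different were counted. With 1 array a group no test exists, and the number of arrays limits the precision.

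The genes and all lists were chosen with earlier results of these data known. Of each of 13 related gene lists and 6 marker lists, the 3 genes with the largest difference from control were to be named, besides every alpha-arrestin and regulator and the 6 nearest genes. Not all of them are printed. Other genes named for their known role (such as Slc2a4, Txn1, Nedd4, Rgs16, Klf10, Pklr and Adrb1) were added after their values were seen. The counting code was run on simulated data with changes far larger than their noise. That checks the code and not differences near the threshold. Alternatives tried were other summaries per gene, dropping cross-hybridising probe sets, other centring or scaling, and other thresholds. Python 3.11.15, NumPy 2.4.6, pandas 2.3.3 and Matplotlib 3.10.9 were used.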

Additional observations from a re-analysis of the deposited data

How the results depend on the processing

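Between myoblast medium and control, Txnip ranged from -3.93 to -3.67 and Arrdc4 from -3.89 to -3.63 over the 7 alternatives that recompute a value. In fibroblast medium against control they ranged from -1.06 to -0.99 and from -1.03 to -0.95. Each of these genes has 1 probe set and no symbol changed, so only the centring and the scaling could move their values. The count of 2 genes past 2-fold did not change in myoblast medium against control or between the conditioned media. In fibroblast medium against control it was 0 with a 3-fold threshold, which is stricter, and 0 with arrays centred on the median of their nonblank values, where both genes fell just under 2-fold. Of 141 single values recomputed, 134 moved by less than the SD of the added control transcripts in their comparison. Many could not move, because 5 of the 7 genes have 1 probe set. That SD was 0.16 for myoblast medium against control, 0.38 for fibroblast medium against control and 0.48 between the conditioned media. A shift of one size can therefore pass in one comparison and not in another. The 7 values that moved by more were the 7 genes in myoblast medium against control with arrays scaled to those transcripts, each lowered by 0.25. That scaling took the share of higher genes among those past 2-fold from 61.5% to 27.6% in this comparison and from 35.0% to 19.0% between the conditioned media. The counts behind it were 95 higher and 249 lower against 192 and 120, and 193 higher and 821 lower against 302 and 560. Arrdc2 and Mlxipl gave no value when probe sets needed values on 2 arrays. The platform's own symbols were the same as the updated ones. No paired analysis was possible because each group held 1 array. Without replicates, no difference here has an error.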

Other observations

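Differences from fresh medium are given unless array values are named. Of all genes, 1.35% were at least 2-fold higher and 0.844% lower in myoblast medium, and 4.26% and 2.6% in fibroblast medium. Genes of other regulators reported to act on Txnip or its relatives were counted too. Of 12 measured glucocorticoid-induced genes, 1 was at least 2-fold higher in myoblast medium, the metallothionein gene Mt1 (array values of -0.26 in fresh and 1.24 in myoblast medium), and 1 at least 2-fold lower, Errfi1, a feedback inhibitor of EGFR, at -1.11. Their median was -0.05. In fibroblast medium Cebpd at 1.65 and Dusp1 at 1.58 were higher and Cdkn1c, a cell cycle inhibitor gene, was lower at -2.59, with a median of 0.20. Of 15 genes reported as FOXO targets, 1 was at least 2-fold higher in myoblast medium, Gadd45a at 1.05, and 0 were at least 2-fold lower. Their median was -0.12. Of the 15, 11 were below 0 by any amount, beside 40.2% of all genes, a base that includes genes at 0 on every array. This was not tested. In fibroblast medium 3 were lower, Pdk4, which restrains glucose oxidation, at -1.47, Bcl2l11 at -1.30 and Trim63 at -1.12, and Bcl6 was higher at 1.33.

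Of 20 measured targets of ATF4 and amino acid shortage, 17 were at least 2-fold higher in myoblast medium and 5 in fibroblast medium, with medians of 1.48 and 0.85. Cth had array values of -2.96 in fresh, 0.00 in fibroblast and 1.19 in myoblast medium, and Trib3 of -0.95, 0.00 and 2.86, the reverse of the order of Txnip and Arrdc4 over the media. Ddit3, the gene of the stress factor CHOP, had array values of 0.00, -0.20 and 3.09 in the same order of media. Of the 20 genes, 5 were lower in myoblast than in fibroblast medium and so lacked the order of Cth and Trib3. Cth and Trib3 had the highest differences in the comparison that chose Txnip and Arrdc4 as the lowest. Their reverse order follows in part from that, and nothing is read from it. Of 11 genes of the vesicle budding machinery that Arrdc1 is known to recruit, 0 were 2-fold different in either medium, and the largest differences were those of Vps37a, 0.37 in myoblast medium, and Pdcd6ip, 0.39 in fibroblast medium.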
